A study of Mus musculus with 2 samples.

Results

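Genes for making, carrying and clearing retinoic acid were read in primary osteoblasts of Slc39a13-KO and wild-type newborn mice, with 1 array of each genotype. The set held 9 genes, chosen by name with earlier results of these data known: Rbp4, Stra6, Rdh10, Aldh1a1, Aldh1a2, Aldh1a3, Crabp1, Crabp2 and Cyp26b1. All 12 probe sets annotated to exactly 1 of these symbols were used, of 34945 such probe sets for 18193 genes on the array, and 0 probe sets with several symbols named one of them. Slc39a13 (ZIP13) encodes a zinc transporter. In the Slc39a13-KO mice exons 6 to 8, which carry a motif shared by its family of transporters, had been replaced by a Neo cassette in R1 embryonic stem cells, a change carried by all cells of the animal. The osteoblasts came from the skull vault, digested with collagenase and dispase, and the later fractions were grown in medium with fetal calf serum. For the arrays, strain, sex and the number of pups per culture were not stated in the sources read. The targeted gene itself, read by 1 probe set, had a signal of 90.4 in the Slc39a13-KO array and 1309 in the wild-type array, 14.5-fold lower, which goes with the labels, although whether this probe set lies in the removed exons was not established.

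Retinoic acid is the active acid form of vitamin A. Retinol travels in blood on retinol binding protein (Rbp4) and enters some cells through the receptor Stra6; retinol dehydrogenases such as Rdh10 oxidise it to retinal, and the retinal dehydrogenases Aldh1a1, Aldh1a2 and Aldh1a3 turn retinal into retinoic acid. In the cell the acid is held by the binding proteins Crabp1 and Crabp2, acts on nuclear receptors of the RAR and RXR families, and is broken down by cytochromes of the Cyp26 family. In the skeleton this pathway is known for patterning the skull and limbs, and retinoic acid is known to restrain the formation of cartilage.

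In the Slc39a13-KO array the signals of 4 of the 8 measured genes were at least 2-fold lower, those of 1 were at least 2-fold higher and those of 3 passed neither threshold. Aldh1a1, Aldh1a3, Crabp2 and Cyp26b1 were lower, Rbp4 was higher, and Stra6 lay below the floor in both arrays. That is 50% of the measured retinoid genes lower. Over all 12269 measured genes, 5.93% were called lower and 8.01% higher by the same rule. Of the 4 lower retinoid genes only Aldh1a1 and Cyp26b1 lay above the floor in both arrays. Aldh1a3 and Crabp2, and Aldh1a2 and Crabp1 among the genes not called, passed the floor only in wild-type. Their ratios could therefore only come out below 0. Rbp4, measured only through Slc39a13-KO, could only come out above 0. The shares over all genes include such genes too, but as a smaller part. Of the 12269 measured genes, 8932 had no measured probe set at the floor. Among the 8 retinoid genes only Aldh1a1, Cyp26b1 and Rdh10 had none and could come out on either side of 0. The 50% and the 5.93% are therefore shares of sets with unlike make-up. The median log2 ratio, Slc39a13-KO minus wild-type and with bounds taken as values, was -1.25 over the 8 genes and 0.11 over all measured genes. The 8 genes' median was -0.48 with poly-A scaling, where that of all genes was 0.94, and with no floor it was -2.32 over 9 genes. A signal here is a linear MAS5 intensity, the floor is 85.1 (the median of both arrays' signals) and lower signals were raised to it before log2 was taken, so a ratio with 1 signal at the floor is a bound, given as at least N-fold. With 1 array per genotype no replicate error and no test exist, and every difference is between 2 arrays. The only error at hand is the spread between probe sets of 1 gene on the same arrays, an SD of log2 ratios whose median was 0.34 over 5700 genes and whose 90th percentile was 0.75. In these bulk RNAs fewer cells of a type and less RNA per cell cannot be told apart.

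**Figure D1:**
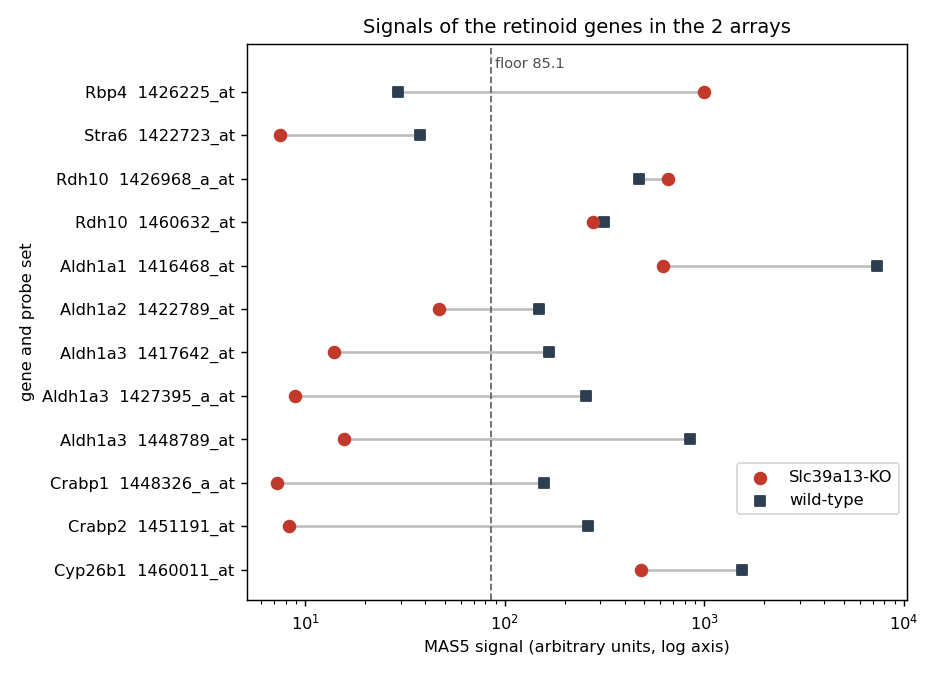
MAS5 signals (horizontal, arbitrary units, log axis) of each of the 12 probe sets of the 9 retinoid genes (vertical), with red circles for the Slc39a13-KO array, dark squares for the wild-type array and a dashed line at the floor of 85.1. The Slc39a13-KO signal lies left of the wild-type signal for each probe set except that of Rbp4 and 1 of Rdh10, and for Aldh1a2, Aldh1a3, Crabp1 and Crabp2 it lies below the floor.

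The osteoblast label was borne out only in part. In Slc39a13-KO the chondrocyte markers had a summed signal of 236312 and the osteoblast markers 213059. In wild-type these sums were 14414 and 172569. Of 10 measured osteoblast markers 4 were called higher and 1 lower, Msx2, at least 4.39-fold. Whether the cultures held like shares of osteoblasts was not tested. The collagen genes Col1a1 and Col1a2 and the matrix gene Sparc had signals from 7655 to 49640.2 in Slc39a13-KO. In wild-type they ran from 12229.8 to 40038. None of these 3 was called, although the 2 probe sets of Col1a1 disagreed (log2 ratios -1.40 and 0.05, SD 1.02). Among genes of maturing and mineralising bone cells, Dmp1 had 383 in Slc39a13-KO and Alpl 197, both below the floor in wild-type (at least 4.5-fold and 2.32-fold higher), the bone transcription factor Sp7 had 153 in Slc39a13-KO and 94.8 in wild-type, and Ibsp, Phex and Mepe lay below the floor in both. Median signals were 92.6 in Slc39a13-KO and 78.2 in wild-type after the authors' scaling. The spiked poly-A controls, bacterial RNAs, were lower in Slc39a13-KO for 24 of 24 probe sets (median log2 ratio -1.02), and scaled on them the median gene stood at 0.94 and 96.3% of called genes were higher, in place of 57.5% with the authors' scaling. Median scaling gave 38.3%, loess 46.3% and quantile normalization 47.5%. Directions below are therefore relative to the bulk of genes.

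The stretches before the start sites of 5 of these genes are shown, since these genes span the higher signal in Slc39a13-KO (Rbp4), called lower ones (Aldh1a1, Cyp26b1) and bounds short of the threshold (Aldh1a2, Crabp1). They are the 250 bases before the annotated start in RefSeq (build GRCm38.p6), 5′ to 3′ on the gene's own strand, and for Rbp4 and Aldh1a1, which have 2 listed starts, before the one further into the gene. Of the 9 genes 6 had an entry in the table used, with 11 starts in all. The 1 start listed for Cyp26b1 lies inside the gene's RefSeq span, whose 5′ end is at chr6:84593908. Part of the Cyp26b1 stretch is thus within the annotated gene, and its distances are counted from the listed start. Capitals mark matches on either strand to a GC box, a CCAAT box, a TATA box or a half-site of the retinoic acid receptors, and in these 5 stretches 0 matches overlap.
Rbp4, chr19:38124812-38125061, minus strand: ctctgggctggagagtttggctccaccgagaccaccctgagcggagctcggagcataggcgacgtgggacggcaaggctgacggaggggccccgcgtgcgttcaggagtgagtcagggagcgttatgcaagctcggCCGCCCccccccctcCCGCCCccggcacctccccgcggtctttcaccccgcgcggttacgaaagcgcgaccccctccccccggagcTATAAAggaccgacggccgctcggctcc
Aldh1a1, chr19:20601718-20601967, plus strand: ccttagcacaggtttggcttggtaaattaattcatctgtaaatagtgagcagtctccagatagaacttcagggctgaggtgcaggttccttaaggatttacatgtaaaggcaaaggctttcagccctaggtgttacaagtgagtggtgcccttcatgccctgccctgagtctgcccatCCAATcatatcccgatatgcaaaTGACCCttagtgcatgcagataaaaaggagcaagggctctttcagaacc
Aldh1a2, chr9:71215539-71215788, plus strand: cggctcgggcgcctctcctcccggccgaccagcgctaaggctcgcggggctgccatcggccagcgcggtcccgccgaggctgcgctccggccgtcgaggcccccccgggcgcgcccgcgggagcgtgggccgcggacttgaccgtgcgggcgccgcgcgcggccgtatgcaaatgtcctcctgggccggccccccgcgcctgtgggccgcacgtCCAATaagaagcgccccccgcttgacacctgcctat
Crabp1, chr9:54764498-54764747, plus strand: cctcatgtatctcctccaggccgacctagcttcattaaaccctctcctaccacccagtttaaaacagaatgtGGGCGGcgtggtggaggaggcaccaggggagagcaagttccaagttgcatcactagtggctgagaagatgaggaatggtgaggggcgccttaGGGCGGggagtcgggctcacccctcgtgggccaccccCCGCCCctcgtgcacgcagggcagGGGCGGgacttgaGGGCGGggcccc
Cyp26b1, chr6:84593811-84594060, minus strand: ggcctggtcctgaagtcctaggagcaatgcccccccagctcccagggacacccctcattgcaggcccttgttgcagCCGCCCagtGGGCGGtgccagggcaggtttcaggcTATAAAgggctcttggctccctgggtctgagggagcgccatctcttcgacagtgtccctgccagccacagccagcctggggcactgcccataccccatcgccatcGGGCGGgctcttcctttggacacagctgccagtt

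The 5 stretches differed in base composition. Aldh1a2 held 40 CpG dinucleotides, as many as or more than 98.9% of 32851 stretches of the same length before RefSeq starts, Rbp4 held 28, Crabp1 12, Cyp26b1 7 and Aldh1a1 1, against a median of 6. GC boxes, spelled GGGCGG and found in 32.7% of all such stretches, stood in Crabp1 (5 matches), Cyp26b1 (3) and Rbp4 (2). A CCAAT box, searched as those letters and found in 33.8%, stood 36 bases before the start of Aldh1a2 and 72 before that of Aldh1a1. A TATA box, spelled TATAAA and found in 12.4%, stood 28 bases before the start of Rbp4 and 139 before the listed start of Cyp26b1. The 5′ end of the RefSeq span of Cyp26b1 lies closer to this match. Half-sites of the receptors were searched as AGGTCA, the letters of the classical element. The spelling AGTTCA, which many natural elements hold, was searched as well. The same was done for GGGTCA as another common spelling. The last form searched was GGTTCA on both strands. Any of these was found in 38.6% of all stretches and stood 49 bases before the start of Aldh1a1 and, not printed, 53 bases before the other start of Rbp4. A pair of half-sites in the same orientation spaced by 1, 2 or 5 bases, the arrangement RAR and RXR bind together, was found in 0 of the 11 stretches and in 0.426% of all. A match describes letters in a short window and nothing of binding.

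**Figure D2:**
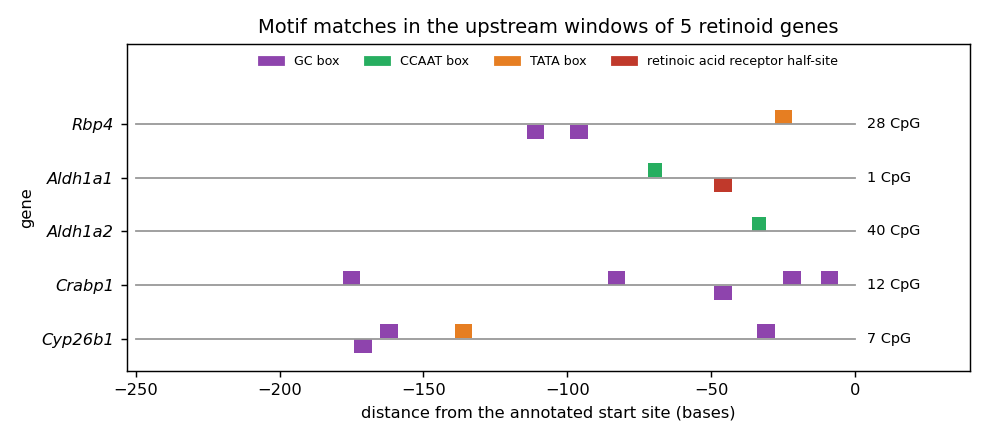
Matches to 4 motifs (coloured boxes, above the line for the gene's own strand and below it for the opposite strand) by distance in bases from the annotated start site (horizontal) in the windows of 5 retinoid genes (vertical), with the number of CpG dinucleotides at the right. Crabp1 has 5 GC boxes, and only Aldh1a1 among these 5 windows has a retinoic acid receptor half-site, 49 bases before its start.

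Among the genes for delivering retinol and for its first oxidation, the signal differed most for Rbp4, the carrier of retinol in blood, which liver and fat secrete. Its probe set had a signal of 998 in the Slc39a13-KO array and 29.1, below the floor, in the wild-type array. It was thus at least 11.7-fold higher in Slc39a13-KO, a log2 ratio of 3.55, and the only one of the 9 genes called higher. The call held under each of the 9 other settings tried, where the ratio ran from 1.64 with the higher floor (the 70th percentile, 319) to 5.10 with none. Stra6, the membrane receptor that takes retinol from Rbp4, had signals of 7.5 in Slc39a13-KO and 37.5 in wild-type, both too low to compare. Rdh10, which makes retinal from retinol in embryos, did not differ clearly. One of its probe sets had 661 in Slc39a13-KO and 472 in wild-type and the other had 276 in Slc39a13-KO and 315 in wild-type, so that they pointed in opposite directions (mean log2 ratio 0.15, SD 0.48 between 2 probe sets).

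The retinal dehydrogenases, which carry out the last step to retinoic acid, had lower signals in Slc39a13-KO in all 3 genes, and 2 of them passed the threshold. Aldh1a1, abundant in liver, lens and many stem cells, had 622 in the Slc39a13-KO array and 7355 in the wild-type array, 11.8-fold lower (log2 ratio -3.56). Both signals were far above the floor, and among 8932 genes with no measured probe set at the floor in either array it stood 16th from the lowest ratio. Aldh1a3, which serves the developing eye and nose, was below the floor in Slc39a13-KO with all 3 of its probe sets. They read 14, 8.92 and 15.6 in Slc39a13-KO, against 167, 256 and 844 in wild-type. Its mean was at least 3.88-fold lower (log2 ratio -1.96, SD 1.21 between 3 probe sets), and the bounds of the probe sets, which grow with the wild-type signal, were 1.96-fold, 3.01-fold and 9.92-fold. Aldh1a2, the main source of retinoic acid in the early embryo, had 46.9 in Slc39a13-KO, below the floor, and 148 in wild-type. That is at least 1.74-fold lower, short of the threshold, and it was called lower only with the lower floor (the 30th percentile, 34.9) or none (log2 ratio -1.66 in both).

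The binding proteins were dim, with both signals below the floor in Slc39a13-KO, and 1 of 2 passed the threshold. Crabp2, which hands retinoic acid to its receptors in the nucleus, had 8.27 in Slc39a13-KO and 260.5 in wild-type, at least 3.06-fold lower. Crabp1, held to keep the acid in the cytoplasm, had 7.24 in Slc39a13-KO and 158 in wild-type. It was at least 1.85-fold lower, short of the threshold, and passed it with median (log2 ratio -1.02), loess (-1.03) and quantile scaling and with the lower floor (-2.18) or none (-4.45). A wild-type signal so near the floor leaves little room to measure a lower one.

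Clearance, too, had a lower signal. Cyp26b1, a cytochrome that oxidises retinoic acid and whose loss disturbs the skeleton, had 481 in the Slc39a13-KO array and 1541 in the wild-type array, 3.2-fold lower (log2 ratio -1.68). It stood 170th from the lowest of these 8932 genes. With poly-A scaling its ratio was -0.66, against 0.94 for the median gene, and it was no longer called. The other measured genes called lower, Aldh1a1 (-2.54), Aldh1a3 (-1.37) and Crabp2 (-1.03), remained called with that scaling, whereas Rdh10 (1.17) became called higher with it.

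**Figure D3:**
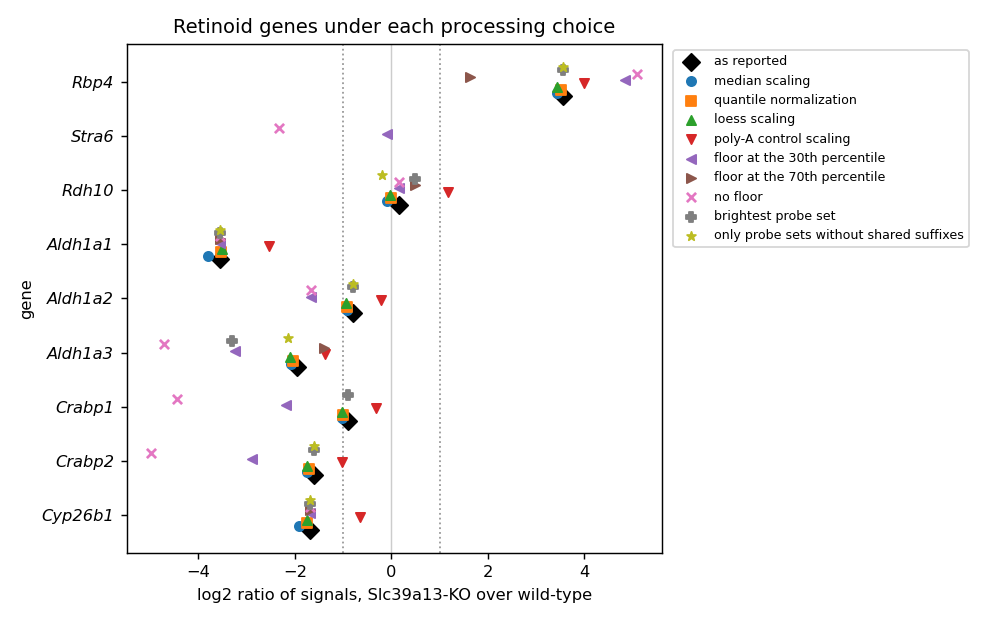
Log2 ratio, Slc39a13-KO over wild-type (horizontal) for the 9 retinoid genes (vertical) as reported (black diamonds) and under 9 other processing choices (coloured marks), with dotted lines at 2-fold. Rbp4 lies right of the upper line and Aldh1a1 and Aldh1a3 left of the lower line in each, while Crabp1 and Aldh1a2 fall on either side of the lower line; a gene has no mark where it was not measured.

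Beyond the 9 genes, 65 further genes of the pathway in 4 lists, some shared between lists, gave no common direction: of 35 measured, 6 were called higher and 3 lower, with a median log2 ratio of 0.07. These were 17.1% and 8.57%, against 8.01% and 5.93% over all measured genes. Of genes that carry and store retinol, 3 of 14 were measured and 0 called, and 10 lay below the floor in both arrays. The brightest, named after its values were seen, was Fabp5, a fatty acid binding protein that can also carry retinoic acid, with 16111 in Slc39a13-KO and 9018 in wild-type (log2 ratio 0.84). Of other retinoid oxidoreductases 11 were measured, with 1 higher (9.09%) and 2 lower (18.2%) and a median of 0.03. Adh7 and Adh1, alcohol dehydrogenases that can oxidise retinol, were 5.22-fold and 4.94-fold lower. Adh7 had geometric mean signals of 123 in Slc39a13-KO and 640.3 in wild-type (log2 ratio -2.38, SD 0.03 between 2 probe sets), and Adh1 had 189.6 in Slc39a13-KO and 937 in wild-type. Dhrs3, which turns retinal back into retinol, had 1723 in Slc39a13-KO and 772 in wild-type, 2.23-fold higher, and was not called with median scaling (0.91). Its 1 probe set and both of Rarg carry a suffix for shared transcripts, so neither gene was read when such probe sets were left out. Aldh1a7, a paralog of Aldh1a1 in rodents named after its values were seen, had 1173 in Slc39a13-KO and 773 in wild-type (log2 ratio 0.60) and was not called. Cyp26a1, the other widely studied clearing enzyme, also named after its values were seen, lay below the floor in both arrays (5.06 in Slc39a13-KO and 48.5 in wild-type).

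Of the 6 RAR and RXR genes 1 was called, and 3 were too dim to compare or gave only a bound. Rarg, the RAR of skin and cartilage, had geometric mean signals of 1596 in Slc39a13-KO and 675 in wild-type, 2.37-fold higher (log2 ratio 1.24, SD 0.34 between 2 probe sets), and fell just short of the threshold with median scaling (1.00). Rxra had 471 in Slc39a13-KO and 385 in wild-type (log2 ratio 0.29, SD 0.59 between 2 probe sets), and Rxrb had 1297 in Slc39a13-KO and 1009 in wild-type (0.36). Both were called higher with poly-A scaling, Rxra at 1.31 and Rxrb at 1.38, against 0.94 for the median gene. Rara and Rarb were below the floor in Slc39a13-KO and had 113 and 97.3 in wild-type, close to the floor, and Rarb was called lower with the lower floor or none (log2 ratio -1.46 in both). Rxrg was below the floor in both arrays. The 9 measured receptors and cofactors, Rarg included, had a median of 0.29, with 11.1% called higher and 0 lower. Over all measured genes these shares were 8.01% and 5.93%.

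Genes known to be induced by retinoic acid in other settings differed in both directions. Of 14 measured, 5 were higher (35.7%) and 1 lower (7.14%), against 8.01% and 5.93% over all measured genes. Genes of the main retinoid set were kept off this list, whether or not retinoic acid induces them. Their calls, 4 lower (Crabp2 and Cyp26b1 among them) and 1 higher, are therefore not counted here. The shares depend on which list a gene was placed in. Of the 14 ratios 8 were below 0 and the median was -0.19. This median was above 0 with poly-A scaling (0.84), with the lower floor (0.08), the higher floor (1.12) and none (0.28), and the genes called lower became 3 with median, quantile or loess scaling, 4 with the lower floor, 2 with the higher floor or the brightest probe set, 7 with none and 0 with poly-A scaling. Rarres1, a retinoid-responsive membrane protein, had 2607 in Slc39a13-KO and 318 in wild-type, 8.21-fold higher. Meis2, a homeobox gene of proximal limb and skull, had geometric mean signals of 1485 in Slc39a13-KO and 218 in wild-type and was at least 6.82-fold higher (log2 ratio 2.77, SD 0.73 between 4 probe sets). Rarres2, which encodes the adipokine chemerin, had 918 in Slc39a13-KO and 184 in wild-type, 4.98-fold higher (SD 0.78 between 2 probe sets, both with a suffix for shared transcripts). The orphan nuclear receptors Nr2f1 and Nr2f2 went opposite ways, Nr2f1 at 3231 in Slc39a13-KO and 663 in wild-type, 4.87-fold higher, and Nr2f2 at 157 in Slc39a13-KO and 516 in wild-type, at least 3.29-fold lower (log2 ratio -1.72, SD 0.53 between 4 measured of 6 probe sets, and -0.80, not called, with poly-A scaling). The fifth gene called higher was Dhrs3, which is on both lists.

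**Figure D4:**
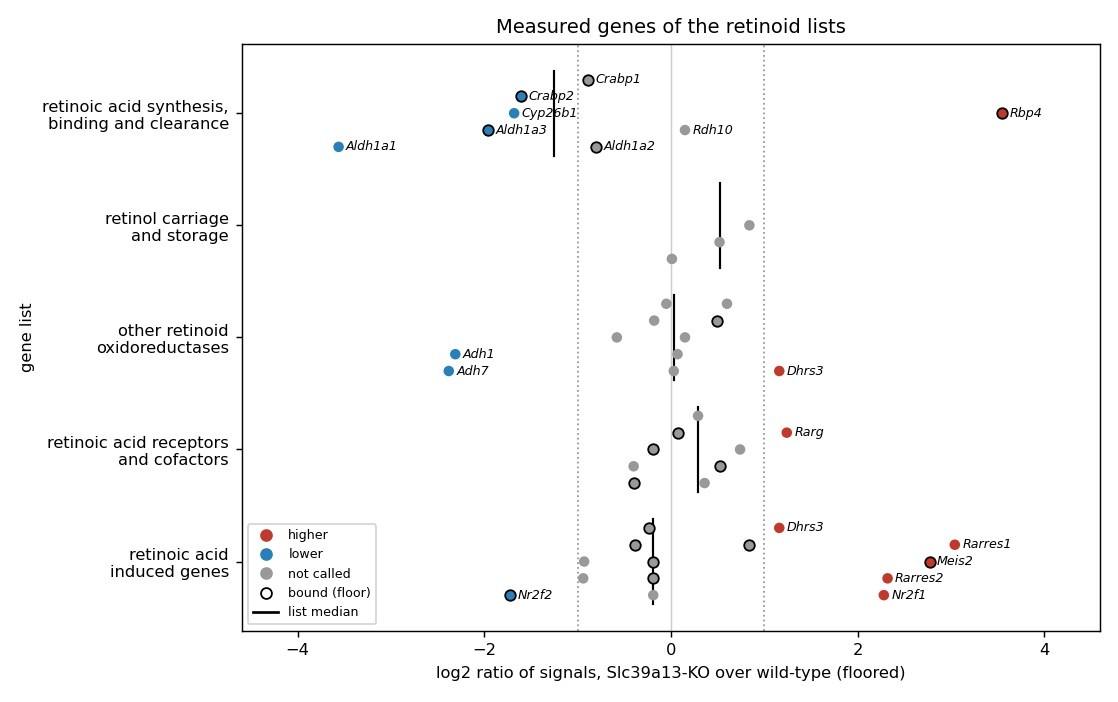
Log2 ratio, Slc39a13-KO over wild-type (horizontal) for the measured genes of 5 lists (vertical), red if called higher, blue if called lower and grey if not called, with a black outline where a signal at the floor makes the ratio a bound, a black line at each list median and dotted lines at 2-fold. The first list has a median of -1.25 with Rbp4 alone past the upper 2-fold line, and the medians of the other 4 lie between -0.19 and 0.52.

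Markers of other cells in the cultures differed between the same arrays. Over all measured genes 8.01% were called higher and 5.93% lower. Higher and lower shares were 90.9% and 0% for chondrocyte, 7.69% and 61.5% for smooth muscle and 46.7% and 6.67% for macrophage markers. They were 60% and 0% for adipocyte, 40% and 10% for osteoblast and 11.1% and 22.2% for meningeal markers. Epithelial and endothelial markers each had 16.7% and 33.3%. Lists with only 1 or 2 calls in a direction say little. Of 22 measured chondrocyte markers 20 were higher and 0 lower in Slc39a13-KO, with a summed signal of 236312 in Slc39a13-KO and 14414 in wild-type and with Snorc and Chad below the floor in both, led by Cnmd (at least 623-fold) and Cytl1 (at least 163-fold). Of 13 smooth muscle and pericyte markers 8 were lower and 1 higher, with a summed signal of 44912 in Slc39a13-KO and 101114 in wild-type and with Myocd below the floor in both, led by Actg2 (41.7-fold lower) and Mcam (at least 10.5-fold lower). Of 15 macrophage and osteoclast markers 7 were higher and 1 lower, led by Lyz2 (8.41-fold) and Ctss (at least 3.71-fold), of 5 adipocyte markers 3 were higher, led by Pparg (at least 10.2-fold) and Fabp4 (at least 6.29-fold), with Adipoq, Cd36, Cidec and Lep below the floor in both, and of 10 osteoblast markers 4 were higher, led by Omd (67.9-fold) and Pth1r (5.2-fold), and 1 lower. The summed signals of these 3 lists were 9202, 3908 and 213059 in Slc39a13-KO, against 6188, 1204 and 172569 in wild-type. Of 6 epithelial and epidermal markers 2 were lower, Perp (6.9-fold) and Dsp (at least 3.23-fold), and 1 higher, and of 6 endothelial markers 2 were lower, Ptprb (at least 12.3-fold) followed by Flt1 (at least 2.54-fold), and 1 higher, with summed signals of 1902 and 2352 in Slc39a13-KO, against 4116 and 3846 in wild-type, and with the keratins Krt5 and Krt14 and the endothelial genes Pecam1 and Kdr below the floor in both arrays. Of 9 measured meningeal markers 1 was higher, Foxc1 (3.74-fold), with Foxd1 next (log2 ratio 0.93), and 2 were lower, Zic1 (at least 12.5-fold) and Tbx18 (at least 5.99-fold). Another 8, the defining Ptgds and Slc6a13 among them, were below the floor in both. The summed signal was 57831 in Slc39a13-KO and 46261 in wild-type. Most of it was Igfbp2, named after its values were seen, with 44767 in Slc39a13-KO and 35616 in wild-type and not called. With poly-A scaling 45.8% of all measured genes were called higher and 1.75% lower, and with the higher floor 5.79% and 5.01%. These shares were 16.9% and 11.3% with no floor and 8.57% and 5.99% without shared suffixes. With other processing the chondrocyte markers called higher numbered 14 to 21. The smooth muscle and pericyte markers called lower became 2 with poly-A scaling, 4 with the higher floor and 5 without shared suffixes. The macrophage and osteoclast markers called higher became 1 with the higher floor and 12 with none. The adipocyte markers called higher became 1 without shared suffixes, and their median log2 ratio was -0.20 there in place of 2.64. The osteoblast markers called higher became 7 with poly-A scaling and 2 with the higher floor. The part of such cells in the values of the retinoid genes was not tested.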

How the data were processed

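RNA of 2 samples was read, 1 Slc39a13-KO and 1 wild-type culture, grouped by their titles. RNA was labelled with a one-cycle biotin kit and hybridised to Affymetrix mouse whole-genome arrays of 45101 probe sets, 64 of them controls. The deposited values are linear intensity values, which the authors made with MAS5 per the labels (its version was not stated there). The study's methods name gcRMA for its own analysis. The values fit MAS5: their 2% trimmed mean is 500.003 in both arrays. Such scaling hides a difference in total mRNA per cell, and MAS5 leaves low signals noisy. No detection calls were used.

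Probe sets were named from the platform annotation, and gene IDs matched 34741 of the 34945 with 1 symbol to RefSeq's GRCm38.p6 table. Signals under the 50th percentile of both arrays' non-control values (85.1) were raised to it, and a probe set was measured if above it in at least 1 array. A gene took the mean log2 ratio of its measured probe sets and the geometric means of its signals, and was called when it reached 2-fold, as in the study, with all its probe sets of 1 sign. No p-value was computed. Calling was first tested on simulated data, with changes planted only in bright genes and well above the threshold. That test does not cover genes near the floor, ratios near 2-fold or differences between cultures. Text names every retinoid gene of the set, the RAR and RXR genes, the called genes of other retinoid lists (at most 4 each way) and, of each cell type list, the 2 that differ most in the direction of its median. Osteoblast genes used to check the label, markers given as below the floor, and genes marked in the text stand outside this rule and were named after their values were seen. No genes of like pattern were sought, since over 2 arrays a pattern is 1 ratio. The genes and the lists (retinol carriage and storage, other oxidoreductases, receptors and cofactors, retinoic acid induced genes, and markers of chondrocytes, osteoblasts, meninges, smooth muscle, macrophages, adipocytes, epithelium and endothelium) were chosen with earlier results of these data known. Alternatives were 4 other scalings, floors at the 30th and 70th percentiles and none, the brightest probe set, and only probe sets without suffixes for shared transcripts. The number of arrays limits the precision. Python 3.11.15, numpy 2.4.6, pandas 2.3.3 and statsmodels 0.14.6 were used.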

Additional observations from a re-analysis of the deposited data

How the results depend on the processing

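The 4 lower and 1 higher calls among the retinoid genes kept their number within 1.5 times under each alternative, except that 7 were lower with no floor and 2 higher with poly-A scaling. Of 68 alternative log2 ratios of these genes 49 moved by less than the SD between the gene's probe sets (0.34, the median SD, for a gene with 1), 19 moved further and 0 of the called ones changed sign. Some of these ratios could not move: the probe set choices repeat a gene's only probe set, and a floor below both signals changes nothing. Aldh1a1 was -3.56 with each floor, with none and with either probe set choice. A floor also cannot turn the sign of a ratio from 1 probe set, so kept calls and signs are partly built in. Aldh1a1, Aldh1a3 and Rbp4 kept their calls in 9 of 9 alternatives and Cyp26b1 in 8, and Crabp2 in each of the 8 where it was measured. For the other 65 retinoid genes the 6 higher calls became 16 with poly-A scaling, 13 with no floor and 3 without shared suffixes, and the 3 lower calls became 5 with median, quantile or loess scaling, 7 with the lower floor (30th percentile) and 12 with none. Over all genes the 983 higher calls became 654 with median and 5895 with poly-A scaling, 1596 with the lower floor, 506 with the higher one (70th percentile) and 3077 with none, and the 727 lower calls became 225 with poly-A scaling, 438 with the higher floor and 2049 with none. A lower floor counts more probe sets as measured (15540 genes, against 8738 with the higher floor), and the cause of the other moves was not tested. With the higher floor, a signal of 319, Crabp1, Crabp2 and Aldh1a2 were not measured. Signal over background limits downward differences of these dim genes. No paired analysis was possible because each genotype has 1 array, and for the same reason no replicate could be left out.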

Other observations

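The meningeal list, whose cells line the inner side of the skull vault, had a median log2 ratio of 0.06, with 0.11 for all genes, and its members, of which 4 transcription factors were chosen here once their values were known, lay on both sides of 0. Zic1, a zinc finger gene of the dorsal neural tube and its coverings, had geometric mean signals of 115 in the Slc39a13-KO array and 1443 in the wild-type array, at least 12.5-fold lower (SD of log2 ratios 0.40 between 2 probe sets). Tbx18, a T-box gene of mesenchyme, had 116 in Slc39a13-KO and 698 in wild-type, at least 5.99-fold lower (SD 0.90 between 2 probe sets). Foxc1, a forkhead gene needed for the skull vault, had 3637 in Slc39a13-KO and 974 in wild-type (SD 0.02 between 2 probe sets). Foxc2, its paralog, had 1222 in Slc39a13-KO and 961 in wild-type and was not called. Whether these differences and those of the retinoid genes share a source was not tested.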
